A study of Mus musculus with 6 samples.

Results

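The genes described are the expressed members of the mouse Zfp series, the numbered symbols under which most mouse zinc finger protein genes were catalogued. A gene was included when its symbol was Zfp followed by digits and optional letters and its level was 1 FPKM (fragments scaled to transcript length and to sequencing depth) or more in the control column of both deposited tables. Zfp36, Zfp36l1 and Zfp36l2 were left out by name. This gave 214 genes out of 352 Zfp symbols and 21881 genes in all. Because the genes were selected on their measured control FPKM, and the control columns also enter every fold change, the fold changes and the counts of calls below are descriptions of these genes and not tests of them.

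Most Zfp proteins carry C2H2 fingers, short loops in which 2 cysteines and 2 histidines hold a zinc ion and neighbouring residues contact DNA. Many begin with a KRAB domain, which binds the corepressor Trim28 and through it recruits the histone methyltransferase Setdb1, and several KRAB zinc finger proteins silence retroviral elements or keep imprinted genes marked. KRAB zinc finger genes lie in tandem clusters that arose by duplication and are usually transcribed at low levels. The symbol itself covers unrelated proteins too, including RNA-binding, ribosome-associated and spindle proteins.

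The cells were mouse leukemia cells of strain C57/B6X129SV carrying AE9a, a truncated AML1-ETO fusion that drives leukemia in mice, floxed Id1 alleles (Id1 fl/fl) and, per the series description, CreER, a recombinase that is active in the presence of tamoxifen metabolites. Of 6 samples, 2 were controls, 2 had received CBD, which the series description names as an Id1 inhibitor, at 15 µM for 16 h and 2 had received 4-OHT at 0.1 µM for 48 h. All 3 groups had the same genotype, no vehicle was named, and there was no 4-OHT group without floxed Id1, so loss of Id1 and the agent itself cannot be told apart. The control samples were each labelled for a different comparison, and the labels do not say whether samples of a group were separate cultures.

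The deposited values were 1 FPKM per group and gene in each of 2 tables, one for CBD and one for 4-OHT, each with a control column of its own, called here the CBD control and the 4-OHT control. No value per sample and no read depth was given, so no replicate spread, n or interval stands beside any value. A gene is called higher or lower where the authors' deposited table lists it as tested with a q value under 0.05. Fold changes are log2 ratios of treated to control FPKM with 0.1 added to each. Id1, the floxed gene, was at 15.4 FPKM in the 4-OHT control and 0.741 with 4-OHT, and it was called lower there. It was at 34.2 in the CBD control and 11.95 with CBD, which did not pass (q = 0.133, the authors' deposited table). Of the leukemia and progenitor markers, Kit, Gata2, Myb and Runx1 lay between 38.0 and 112.7 FPKM in all 4 columns, Runx1t1 between 2.81 and 10.4, Cd34 between 2.06 and 3.41, while the pan-leukocyte gene Ptprc and the myeloid gene Mpo were under 0.5 and the myeloid gene Elane was listed at 0 throughout. Of 7 such markers tested with CBD, 3 were lower, beside 7.74% of all tested genes. These were Runx1 from 92.6 to 47.4 FPKM, Myb from 107.0 to 65.5 and Runx1t1 from 6.95 to 2.81. The 28 neuron, oligodendrocyte and astrocyte genes examined summed to 116.8 FPKM in the CBD control and 622.7 with CBD. Of them 25 were called higher and 0 lower with CBD, beside 18.4% and 7.74% of all tested genes. In the 4-OHT table they summed to 65.6 and 74.5 FPKM. Gap43, Mog, Rbfox3 and S100b were at 0 in the CBD control, none of the 28 was at 0 with CBD, and 10 and 11 were at 0 in the 4-OHT control and with 4-OHT. Their part in the CBD fold changes of the Zfp genes was not tested, and in bulk RNA fewer cells of a type and less RNA per cell cannot be told apart.

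The fingers differ in form among the members on which the comparisons turn. The sequences show the first finger of the called member with the highest and the lowest fold change in each comparison, as coding DNA 5′ to 3′ from GENCODE release M21, with the codons of the 2 cysteines and 2 histidines in capitals. For Zfp667 and Zfp609 these are the CBD extremes, and for Zfp187 and Zfp623 the 4-OHT extremes.
Zfp667: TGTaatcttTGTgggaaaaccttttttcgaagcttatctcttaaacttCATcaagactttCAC
Zfp609: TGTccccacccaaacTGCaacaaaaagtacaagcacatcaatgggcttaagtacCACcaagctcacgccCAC
Zfp187: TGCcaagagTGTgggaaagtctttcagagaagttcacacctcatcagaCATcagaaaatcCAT
Zfp623: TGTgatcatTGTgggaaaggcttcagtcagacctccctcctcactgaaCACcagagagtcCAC
The fingers of Zfp667, Zfp187 and Zfp623 are each 21 codons long, and these proteins carry 14, 7 and 12 fingers. Zfp609 has 1 finger, 24 codons long, at codons 497 to 520 of 1413.

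The 214 genes were mostly expressed at a few FPKM. Their median level was 5.98 FPKM in the CBD control, 5.08 with CBD, 5.61 in the 4-OHT control and 5.68 with 4-OHT. Averaged over both controls the median was 5.68 FPKM, against 18.7 for all 9716 genes that reached 1 FPKM in both controls, called expressed genes below. In each control column 58 members reached 10 FPKM, and no member was at 0 in any column.

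Zfp207, a microtubule-binding protein of the spindle checkpoint in human cells, had the highest level of all members, with 161.8 FPKM in the CBD control, 124.4 with CBD, 136.0 in the 4-OHT control and 153.0 with 4-OHT. Zfp706 followed with 69.7 and 83.7 FPKM in the table for CBD and 69.6 and 59.6 in the 4-OHT table. Zfp106, an RNA-binding protein needed to keep motor neurons in mice, was at 62.2 and 21.1, and at 56.8 and 70.3. Zfp740 had 51.4 FPKM in the CBD control and 43.0 with CBD, beside 30.1 and 33.9 in the 4-OHT table. None of these carries the KRAB pattern. Zfp91, a ubiquitin ligase, was at 45.7, 38.5, 42.0 and 39.2 FPKM in the same order, and its locus overlaps Cntf and other listed transcripts. At the other end, the members just above the limit were Zfp94 at 1.95 and 1.05 FPKM in the CBD and 4-OHT controls, Zfp157 at 1.15 and 1.06 and Zfp119b at 1.09 and 1.32. Zfp57, an imprint-keeping KRAB gene, and Zfp521, a progenitor factor, fell outside with 0.198 and 1.51 FPKM in the CBD control and 0 and 0.208 in the 4-OHT control. The genes just under the limit were Zfp873 at 1.66 and 0.953, Zfp953 at 0.945 and 2.11 and Zfp867 at 1.14 and 0.937.

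The 2 control columns differed from each other for many members. The median absolute log2 ratio between them was 0.35, the same as for all expressed genes. At least a 2-fold difference was seen in 13 of 214 members, beside 871 of 9716 expressed genes. Zfp185, an actin-associated LIM protein in human, was at 1.38 FPKM in the CBD control and 5.62 in the 4-OHT control. Zfp667 was at 1.18 and 3.28, Zfp866 at 2.04 and 5.38, and Zfp748 at 2.78 and 6.81. Fold changes are therefore given against the control of the same table and, where it changes the picture, against the other control.

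With CBD, few members were called, and those that were mostly fell. Of 210 tested members, 3 were higher and 15 lower, which is 8.57%; among expressed genes 21.5% were called, 10.4% higher and 11.1% lower, and among all tested genes 26.2%, with 18.4% higher and 7.74% lower. An unadjusted p under 0.05 in the authors' deposited table was listed for 28 of the 210 members, beside 2900 of 9489 tested expressed genes. Of the 28 members, 10 did not pass q. The median fold change of members was −0.10, against 0.033 for expressed genes, with 89 of 214 above 0 and a range from −2.13 to 2.02. Zfp207, Zfp295, Zfp568 and Zfp68 were listed as failed and had no test.

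Zfp609, which binds the cohesin loader Nipbl in mouse neural cells, fell most, from 10.1 to 2.24 FPKM with CBD, beside 11.7 and 12.5 in the 4-OHT table. Its log2 fold change was −2.13 (q = 0.000188, the authors' deposited table). It lies at chr9:65539390-65675371 (mm9). Zfp592, a partner of the chromatin reader ZMYND8 in human cells, fell from 26.2 to 6.49 FPKM, beside 18.9 and 19.5 in the 4-OHT table. The log2 fold change was −1.997 and the authors' deposited table gives a q of 1.48e-08. The locus is chr7:88138570-88190048. For both genes the CBD value was the lowest of the 4 columns by more than the gap between controls.

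Zfp106 fell from 62.2 to 21.1 FPKM, a log2 fold change of −1.55 (q = 1.17e-08, the authors' deposited table). Zfp335, a component of histone H3 lysine methyltransferase complexes required for T cell maturation in mice, fell from 9.48 to 3.24 FPKM, with a log2 fold change of −1.52 and q = 0.0372 in the authors' deposited table. Zfp646 fell from 18.8 to 6.57 FPKM, a log2 fold change of −1.51 (q = 0.000157, the authors' deposited table). Its locus overlaps Prss53, and whether reads were counted by strand is not given in the sources used here. Zfp703, a corepressor amplified in human breast tumours, fell from 6.58 to 2.78 FPKM, a log2 fold change of −1.21 (q = 0.0156, the authors' deposited table). These genes also stood lower with CBD than in the 4-OHT control.

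The other 9 lower members had smaller fold changes. Zfp384, a nuclear matrix factor whose human gene is fused in B cell leukemia, fell from 29.9 to 15.1 FPKM (q = 0.0154, the authors' deposited table), beside 22.5 and 21.1 in the 4-OHT table. Zfp217, a subunit of human CoREST-CtBP corepressor complexes, fell from 24.1 to 16.6 FPKM (q = 0.000679, the authors' deposited table), beside 18.3 and 24.3. Zfp598, the ubiquitin ligase that marks collided ribosomes, fell from 49.8 to 26.8 FPKM (q = 0.00546, the authors' deposited table). Its 4-OHT control was 26.9 FPKM, so its CBD value differed from that column by only −0.01 on the log2 scale. Zfp292 fell from 9.04 to 5.09 FPKM (q = 0.0363, the authors' deposited table), and its 4-OHT control was higher, at 12.7 FPKM. Zfp385a, an RNA-binding protein, fell from 35.6 to 16.9 FPKM, beside 28.4 and 27.6 in the 4-OHT table. Zfp704 fell from 4.57 to 1.96, Zfp710 from 7.62 to 3.86, Zfp280c from 5.63 to 3.18 and Zfp821 from 9.39 to 5.85 FPKM. Zfp280c and Zfp821 were at 12.9 and 6.45 FPKM in the 4-OHT control. Against the 4-OHT control all 15 remained on the lower side, from −2.33 for Zfp609 to −0.01 for Zfp598. Among expressed genes called lower with CBD, 986 of 1053 were also lower against the 4-OHT control.

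Only 3 members were higher with CBD. Zfp667 rose from 1.18 to 5.08 FPKM with CBD, a log2 fold change of 2.02 (q = 0.000776, the authors' deposited table). Its 4-OHT control stood at 3.28 FPKM, against which the CBD value was higher by 0.62. Zfp488, a partner of Olig2 in oligodendrocyte differentiation in mice, rose from 6.05 to 12.8 FPKM, with 4.82 and 5.90 in the 4-OHT table. Its log2 fold change was 1.07 (q = 0.00991, the authors' deposited table). Zfp353, which the reference annotation names as a pseudogene, rose from 1.78 to 4.57 FPKM (q = 0.0165, the authors' deposited table), with 1.30 and 1.66 in the 4-OHT table. Beside these genes stands the oligodendrocyte gene Mbp, at 38.6 FPKM in the CBD control and 118.2 with CBD.

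**Figure D1:**
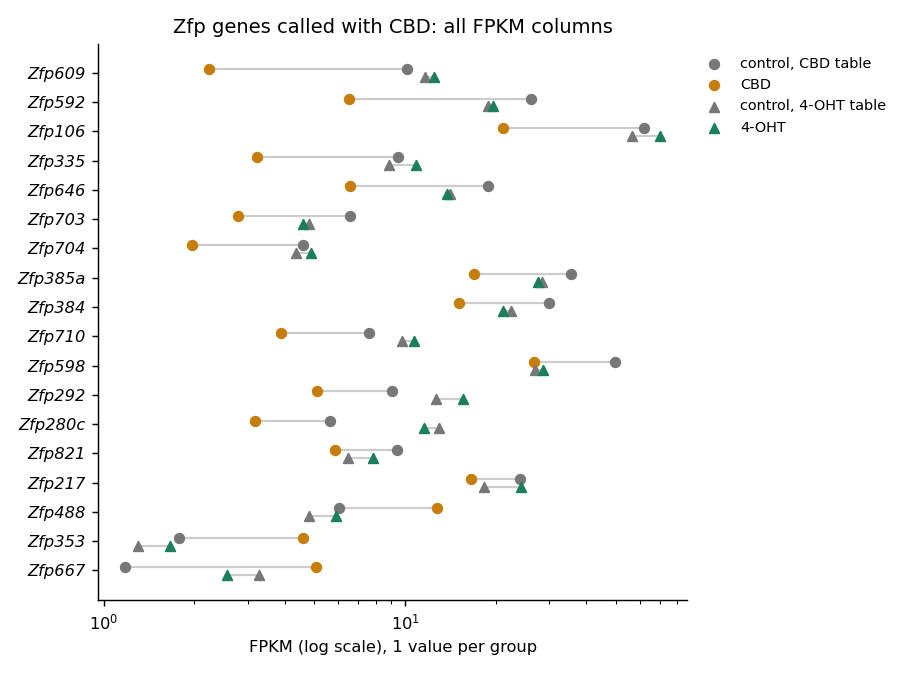
FPKM of the 18 members called with CBD, on a log axis, with 1 point for each of the 4 deposited columns. For the 15 lower members the CBD point lies left of both control points, and for Zfp598 it almost coincides with the 4-OHT control at 26.9 FPKM.

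The lower members did not include a single gene with the KRAB pattern. This pattern was searched in all reading frames of the coding sequence of every coding transcript. It was found for 99 members and not for 113, and the other 2 had no coding transcript in the annotation. Of 97 tested members with the pattern, 1 was higher with CBD, Zfp667, and 0 were lower. An unadjusted p under 0.05 in the authors' deposited table was listed for 3 of them, beside 2900 of 9489 tested expressed genes. Of 111 tested members without the pattern, 1 was higher, Zfp488, and 15 were lower. The lower share was thus 13.5% without the pattern, near the 11.1% of expressed genes, and 0% with it. The higher shares were 0.901% and 1.03%, beside 10.4% of expressed genes. The median fold change was 0.13 with the pattern and −0.26 without it, and 0.017 and −0.25 against the other control. The pattern was loosened after a first, stricter version had been seen to find only 64 members, of which 63 were tested and 0 called. The stricter version was searched only in the protein of the longest coding sequence, so the counts differ in the search as well as the pattern.

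Members with the KRAB pattern were also expressed at lower levels. Their median control level was 3.71 FPKM, against 8.37 for members without it. At 5 FPKM or more in both controls, 30 tested members with the pattern included 0 calls, and 69 without it included 13 lower. The medians there were −0.09 with the pattern and −0.30 without it, so the median with the pattern was below 0 at this level. At 10 FPKM or more the lower calls were 0 of 9 and 8 of 38 and the medians −0.10 and −0.26, and the part of expression level in the calls was not otherwise tested. Among all expressed genes, at 1 FPKM or more, 11.1% were lower. The shares of all genes called at 5 and 10 FPKM were not computed, so these counts have no background at a like level. Under other names, 22 tested genes at 1 FPKM or more in both controls carried both the KRAB and the C2H2 pattern. Most of them stood under 10 FPKM in the controls. Their median fold change was 0.20 with 0 calls, beside 21.5% called among expressed genes. Zfp69, a KRAB gene linked to diabetes in mice, went from 2.32 to 0.597 FPKM, a log2 difference of −1.80 (q = 0.152, the authors' deposited table).

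**Figure D2:**
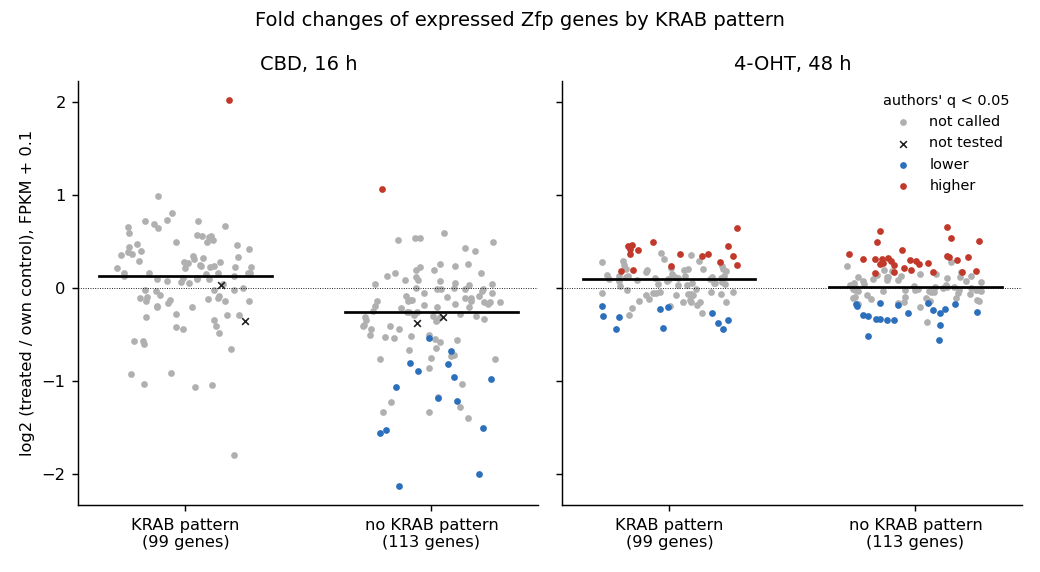
Log2 fold change of each member with CBD and with 4-OHT, split by the KRAB pattern, with 1 point per gene and a line at the median; genes called in the authors' tables are coloured. With CBD the 15 lower calls all lie among members without the pattern, while 4-OHT calls occur in both classes within −0.56 to 0.66.

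Members had a median of 9 fingers, from 0 to 36, the highest being Zfp142. Of 6 tested members with no finger found, 0 were higher and 1, Zfp703, was lower with CBD. Of 24 tested members with 1 to 3 fingers, 1 was higher and 6 lower. Of 80 with 4 to 9 fingers, 0 were higher and 4 lower, and of 98 with 10 or more, 1 was higher and 4 lower. Beside these counts, 10.4% of expressed genes were higher and 11.1% lower. The conserved linker that joins tandem fingers (threonine, glycine, glutamate, lysine, proline) was missing from 14 of the 15 lower members, the exception being Zfp217 with 1 linker. Of 10 members with a SCAN pattern, a dimerization domain, 0 were called with CBD, beside 21.5% of expressed genes. Among all members the linker was missing from 7 of 99 with the KRAB pattern and 64 of 113 without.

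Fold changes with CBD also moved with transcript length in the whole table. Over 9584 expressed genes with a length, the Spearman correlation of length and fold change was −0.36, and over the 214 members it was −0.19, as a description. Among members without the KRAB pattern it was −0.26 and among those with it −0.006. With members split into 3 equal groups by length, in the longest group 0 of 69 tested were higher and 10 lower, and among all expressed genes of that length range 162 of 2704 were higher and 632 lower. In that group the members with the KRAB pattern had a median fold change of 0.034 and 0 calls among 21 tested, and those without it −0.32 and 10 lower among 47. The 15 lower members had a median transcript length of 5685 bases, against 3668 for all members.

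With the table-wide length trend subtracted, the median fold change of all members was 0.010. It was 0.23 with the KRAB pattern and −0.15 without. All 15 lower members stayed below 0, with Zfp609 at −1.52, Zfp592 at −1.48 and Zfp335 at −1.26. For 5 of the 15 the fold change became over 1.5 times smaller, to −0.81 for Zfp106, −0.61 for Zfp710, −0.44 for Zfp704, −0.19 for Zfp217 and −0.07 for Zfp292. The length trend's part in the calls was not tested, since the deposited q values take no account of it.

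**Figure D3:**
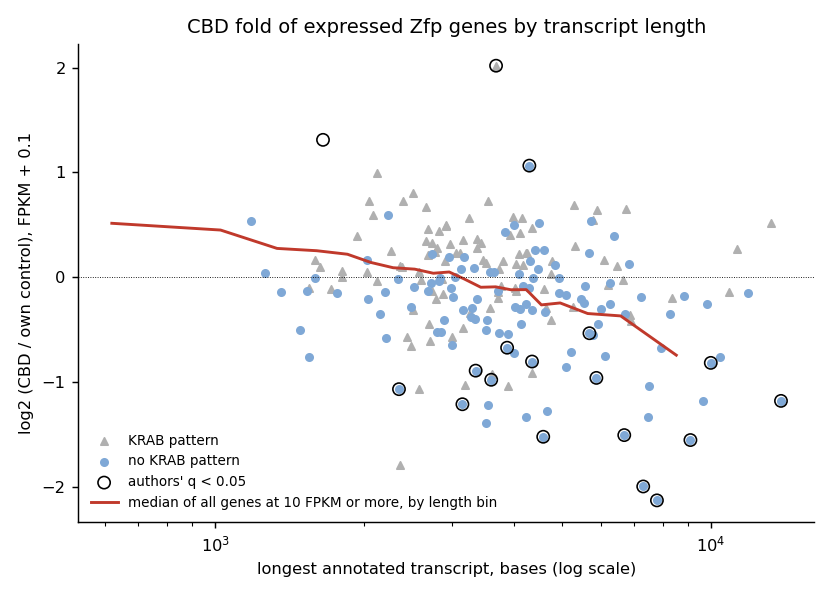
Log2 fold change with CBD against transcript length on a log axis, with 1 point per member by KRAB class, called genes ringed (the empty ring is Zfp353, which has no coding transcript), and a line for the median of expressed genes at 10 FPKM or more. The line falls with length, and 10 of the 15 lower members lie in the longest of 3 length groups.

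The genes clustered along the chromosomes, and the CBD calls lay mostly outside the clusters. With a cluster taken as 4 or more Zfp genes whose neighbouring starts lie within 500 kb, 19 clusters held 96 members, of which 65 had the KRAB pattern. Of 95 tested members in clusters, 1 was higher, Zfp667, and 1 lower, Zfp646. Of 115 outside, 2 were higher and 14 lower. Among expressed genes 10.4% were higher and 11.1% lower, so the lower share outside clusters was near that of expressed genes. Among members without the pattern, 1 of 30 tested in clusters and 14 of 81 outside were lower.

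Against the control of the same table, clusters differed in the median fold change of their members. The chromosome 13 cluster at chr13:67139530-67927937 (mm9) held 19 Zfp genes and 7 members, all with the KRAB pattern. Their CBD fold changes against the CBD control ran from 0.08 to 0.99 with a median of 0.67, and none was called in either comparison. For its member Zfp748 the gap between controls exceeded 0.99, so its CBD value lay below the 4-OHT control. The cluster at chr17:21145905-23736454 held 20 Zfp genes and 13 members, 12 of them with the pattern, with a median of 0.16 with CBD and 0 calls. With 4-OHT its median was 0.21, with 4 members higher and 1 lower. The chromosome 7 cluster at chr7:134376957-135034484, whose 10 Zfp genes were all members, had a median of −0.45 with CBD. Genes of a cluster share sequence and a region, so they are not separate observations of a treatment.

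Reads of such genes can be hard to place. Of the 214 members, 24 shared over 20% of their 36-base words with another gene, up to 100% for Zfp935, and 69 shared none. None of the 24 was called with CBD and 3 were higher with 4-OHT, beside 21.5% and 28.1% of expressed genes. The levels of these 24 are uncertain, since how the authors' counting split shared reads is not given in the sources used here.

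With 4-OHT, many members were called but by small amounts. Of 214 tested, 48 were higher and 31 lower, which is 36.9%; among expressed genes 46.8% were called, 28.1% higher and 18.7% lower, and among all tested genes 44.1%, with 27.2% higher and 16.9% lower. The median fold change was 0.058, against 0.037 for expressed genes, and the range ran from −0.56 to 0.66, so no member reached a 2-fold change. Of the calls, 43 of 48 higher and 29 of 31 lower were under 0.5 on the log2 scale. The 4-OHT calls were on the same side against the CBD control for 30 of 48 higher and 15 of 31 lower members. For expressed genes this held in 1367 of 2713 higher and 644 of 1811 lower. In 24 of the higher and 11 of the lower members the fold change was larger than the gap between the controls.

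Zfp187, listed as Zscan26 in the reference annotation, rose most, from 3.26 to 5.21 FPKM, a log2 fold change of 0.66 (q = 1.64e-10, the authors' deposited table). Its CBD control was 5.27 FPKM, above the 4-OHT value. Zfp69 rose from 1.30 to 2.09 FPKM (q = 0.00199, the authors' deposited table), and its CBD control was 2.32. Zfp395, which binds the huntingtin gene promoter in human cells, rose from 7.07 to 10.3 FPKM (q = 1.05e-11, the authors' deposited table). Zfp839 rose from 2.29 to 3.55 FPKM, Zfp408 from 2.65 to 3.82 and Zfp260 from 4.05 to 5.77. Of these 6, only Zfp395 was also higher with 4-OHT than in the CBD control.

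Zfp623 fell most with 4-OHT, from 3.63 to 2.43 FPKM, a log2 fold change of −0.56 (q = 0.000163, the authors' deposited table), and its CBD control was 6.92. Zfp771 fell from 4.83 to 3.35 FPKM (q = 0.00933, the authors' deposited table), with a CBD control of 10.1. Zfp113 fell from 3.43 to 2.49 FPKM (q = 1.4e-06, the authors' deposited table). Zfp568, a KRAB protein that represses a placental Igf2 transcript in mice, fell from 8.53 to 6.31 FPKM, and the authors' deposited table lists its q as 0. Its CBD control was 5.37 FPKM, so its 4-OHT value lay above that column. Zfp828, listed as Champ1, which helps attach chromosomes to spindle microtubules in human cells, fell from 21.9 to 16.7 FPKM (q = 3.62e-09, the authors' deposited table). Zfp398 fell from 3.57 to 2.61 FPKM, and it and Zfp828 were also higher with 4-OHT than in the CBD control.

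**Figure D4:**
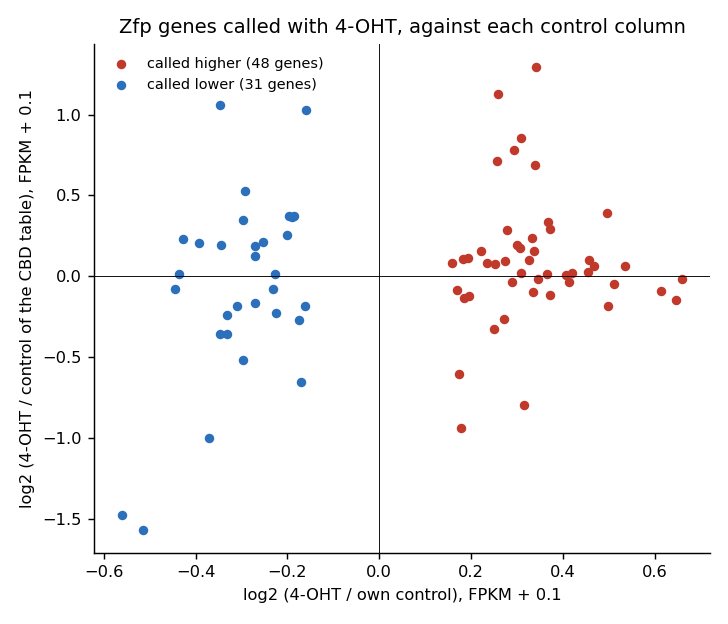
Log2 fold change with 4-OHT against its own control (x) and against the CBD control (y), 1 point per member called, coloured by direction. The points spread more along y than along x, and 18 of the 48 higher and 16 of the 31 lower members lie across 0 on the y axis.

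Calls in the 4-OHT table occurred in both domain classes. Of 99 members with the KRAB pattern, 17 were higher and 11 lower, and of 113 without it, 30 were higher and 20 lower. Among expressed genes 28.1% were higher and 18.7% lower. The median fold change was 0.093 with the pattern and 0.016 without. Expression differs between the classes, as given above, and their difference was not tested.

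Among the members, 10 were called in both comparisons, which used separate control columns. This is 4.67% of members, beside 11.3% of expressed genes. Zfp106, Zfp217, Zfp292, Zfp335, Zfp704 and Zfp821 were lower with CBD and higher with 4-OHT. Zfp667 was higher with CBD and lower with 4-OHT, from 3.28 to 2.56 FPKM. Zfp353 and Zfp488 were higher in both and Zfp280c lower in both. Against the CBD control the 4-OHT fold changes of these 3 had the opposite sign, at −0.093, −0.035 and 1.02, as did those of Zfp667, at 1.06, and Zfp821, at −0.26. For Zfp217 the 4-OHT rise was from 18.3 to 24.3 FPKM, which left it at the CBD control's 24.1. For Zfp106 it was from 56.8 to 70.3 FPKM (q = 1.04e-06, the authors' deposited table), above both controls.

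Several members with well-described roles in chromatin passed the test in neither table. Zfp445, which helps keep imprints, was at 10.7 FPKM in the CBD control, 10.2 with CBD, 13.02 in the 4-OHT control and 14.3 with 4-OHT. Zfp809, which recruits Trim28 to murine leukemia virus sequences in mouse embryonic stem cells, was at 8.22, 8.23, 11.6 and 11.4 FPKM. Zfp281, a pluripotency factor, was at 6.54, 6.49, 8.55 and 8.56. Zfp148, a GC-box binding factor, was at 12.2, 10.2, 12.1 and 11.1 FPKM. For each of the first 3 the gap between controls exceeded the gap within a table.

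Zfp410, which drives Chd4 transcription in mouse and human red cell precursors, was at 22.2 FPKM in the CBD control and 21.4 with CBD, and it rose with 4-OHT from 20.9 to 23.9 FPKM (q = 0.0113, the authors' deposited table). Chd4 itself fell with CBD from 90.5 to 26.9 FPKM. Zfp143, a promoter-binding activator, went from 11.4 to 7.26 FPKM with CBD (q = 0.337, the authors' deposited table), and rose with 4-OHT from 10.8 to 12.3 (q = 0.0335, the authors' deposited table). Zfp644, which recruits the methyltransferases Ehmt1 and Ehmt2, was at 11.7 (CBD control) and 11.2 FPKM (CBD) and fell with 4-OHT from 17.4 to 15.2 (q = 0.00378, the authors' deposited table). Zfp622, a maturation factor of the large ribosomal subunit, was at 27.0 and 28.6 FPKM and fell with 4-OHT from 19.3 to 17.2 (q = 0.027, the authors' deposited table). Zfp326, a splicing-linked factor, went from 7.14 to 2.88 FPKM with CBD but had q = 0.282 in the authors' deposited table.

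Among 24 genes for partners of KRAB proteins and for heterochromatin, 21 were tested with CBD, with 0 higher and 7 lower, beside 10.4% and 11.1% of expressed genes. Their median fold change was −0.53, against 0.033 for expressed genes, and −0.33 with the length trend removed. The lower ones included the maintenance DNA methyltransferase Dnmt1, from 124.8 to 20.1 FPKM, Chd4, the heterochromatin protein gene Cbx5, from 82.8 to 38.1, and Setdb1, from 33.3 to 18.1. Trim28 went from 184.8 to 123.5 FPKM (q = 0.0958, the authors' deposited table). With 4-OHT, 5 of 23 tested were higher and 4 lower, beside 28.1% and 18.7% of expressed genes, and Trim28 was at 200.3 and 192.4 FPKM. Other expressed zinc finger families gave 1 higher and 0 lower of 29 Zbtb genes, 0 and 1 of 11 Zkscan and Zscan genes, 0 and 2 of 9 Klf genes and 0 and 1 of 3 Ikzf genes with CBD. Expressed genes with zinc finger domains of other kinds gave 4 higher and 6 lower of 49. Beside these counts, 10.4% of all expressed genes were higher and 11.1% lower.

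The promoters of Zfp667 and Zfp488 are shown because both genes were higher with CBD and have a RefSeq promoter. The E box CANNTG was searched because Id1 is known to inhibit factors that bind it. Id1 itself was not called with CBD. RefSeq promoters of 300 bases, 250 before and 50 after the start, were found for 177 members, with 225 promoters in all. They are given 5′ to 3′ on the gene's strand in build GRCm38.p6, with the E box CAGCTG in capitals. Zfp667 is at chr7:6286330-6286629 on the plus strand and Zfp488 at chr14:33978715-33979014 on the minus strand.
Zfp667: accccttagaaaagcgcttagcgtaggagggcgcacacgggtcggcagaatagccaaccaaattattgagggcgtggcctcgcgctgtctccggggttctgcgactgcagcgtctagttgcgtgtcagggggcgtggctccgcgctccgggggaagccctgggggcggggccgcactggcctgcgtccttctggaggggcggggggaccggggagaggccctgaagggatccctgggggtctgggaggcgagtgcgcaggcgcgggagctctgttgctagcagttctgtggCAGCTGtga
Zfp488: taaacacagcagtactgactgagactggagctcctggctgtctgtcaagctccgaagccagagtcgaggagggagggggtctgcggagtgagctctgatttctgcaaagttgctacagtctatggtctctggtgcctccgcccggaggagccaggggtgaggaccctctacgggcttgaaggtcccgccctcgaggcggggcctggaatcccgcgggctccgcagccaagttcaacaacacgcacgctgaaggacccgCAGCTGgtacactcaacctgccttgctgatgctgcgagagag
CAGCTG, which reads the same on both strands and is one form of CANNTG, was in 18.2% of the members' promoters and 16.3% of all promoters. CANNTG was in 66.2% and 72.3%, and the form CACCTG, searched on both strands, in 13.3% and 20.2%. A match describes these letters and not a bound site.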

How the data were processed

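RNA-seq was run on 6 samples of mouse AE9a leukemia cells, and the 2 deposited tables, not single samples, were analysed. The submitters' processing notes name Bowtie 0.12.2, Cuffdiff and build mm9; for Cuffdiff no version, settings, annotation or strand option is given in the sources used here. The deposited values are FPKM, 1 per group, and the authors' p-values and q-values; a log2 fold column was deposited too. The deposited q values differed from a Benjamini-Hochberg adjustment of the deposited p-values over all tested genes by at most 1.52e-06 (CBD) and 1.31e-06 (4-OHT).

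Log2 fold changes were recomputed from FPKM with 0.1 added, with Python 3.11.15, pandas 2.3.3 and numpy 2.4.6. Calls are the authors' tests with q under 0.05, adjusted over the whole table; no test was added. Depth is unknown. Transcript length, the C2H2, KRAB and SCAN patterns and shared 36-base words came from GENCODE release M21, matched by symbol for 203 members and by synonym for 11. The length trend was the median fold change in 20 length bins of genes at 10 FPKM or more in both controls. The length trend and the Benjamini-Hochberg adjustment were tested on simulated data, and the call rule on a small made-up table. The pattern, shared-word, cluster and promoter searches were not tested in this way. Starts are given with 1 added to the deposited value, which matched RefSeq gene lengths for 45 members against 4 without.

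Genes named are the 6 highest and 6 lowest called fold changes per comparison, members called in both, the 5 highest levels, the 4 largest gaps between controls, 3 genes on either side of the limit, and a list of members with known roles. Zfp704, Zfp280c, Zfp385a, Zfp710, Zfp142 and Zfp935 were named for their values, and Zfp295 and Zfp68 for a failed test. The members and lists were chosen with earlier results of these data known. Alternatives were other pseudocounts, control minimums, q and fold limits, the other control column and removal of the length trend.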

Additional observations from a re-analysis of the deposited data

How the results depend on the processing

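No paired analysis was possible because the tables hold 1 value per group, and leaving out each replicate was not run for the same reason; signal from single libraries, depth and replicate spread therefore limit every value here. Of 56 values of the counts and medians under alternatives, 42 stayed within 1.5 times for a count or 0.1 (log2) for a median, and 14 moved further; the cause was not tested beyond the change in genes or limit itself. For CBD, the 3 higher members became 1 at a control minimum of 2 FPKM, 0 at 5 FPKM and 19 with no minimum, and the 15 lower became 8 at a q under 0.01 and 8 at a 2-fold limit. The CBD median of −0.10 became −0.23 at a minimum of 5 FPKM, 0.13 with no minimum and 0.010 with the length trend removed. For 4-OHT, the 48 higher members became 31 at a q under 0.01, 23 at a minimum of 5 FPKM, 30 when the same side of the CBD control was also required and 0 at a 2-fold limit. The 31 lower became 15 and 0 under the last 2. The 4-OHT median of 0.058 ran from 0.019 to 0.062.

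Alternatives were also run for 47 called fold changes, all those with CBD and, with 4-OHT, those of most named members. Fold changes that were not called were left out. Of the 47, 16 changed sign against the other control column, all with 4-OHT. They became −0.019 for Zfp187, −0.081 for Zfp207, −0.18 for Zfp260, −0.093 for Zfp353, −0.049 for Zfp408, −0.035 for Zfp488, −0.15 for Zfp69, −0.60 for Zfp740, −0.26 for Zfp821 and −0.091 for Zfp839. They became 1.02 for Zfp280c, 0.017 for Zfp398, 0.23 for Zfp568, 0.37 for Zfp644, 1.06 for Zfp667 and 0.21 for Zfp828. None of the 47 changed sign with a pseudocount of 1 FPKM or with the length trend removed.

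Leaving out the 24 members with many shared 36-base words was added after seeing the data, and so was the looser KRAB pattern used above. All 18 CBD calls lay among the members with fewer shared words.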

Other observations

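Of the 138 Zfp genes that the control limit left out, 102 were tested with CBD, and 16 were higher and 0 lower in the authors' deposited table, beside 18.4% and 7.74% of all tested genes. They were left out for a low control level, so their direction is not read as a result. Zfp365, a centrosomal protein gene expressed in brain, was at 0.0186 FPKM in the CBD control and 4.97 with CBD, and it was listed at 0 in the 4-OHT control and with 4-OHT. Zfp423, a Smad partner needed for cerebellar development in mice, was at 0.00535 and 1.04 FPKM, and likewise listed at 0 in the 4-OHT table. Zfp804a was at 0.00626 and 1.21 FPKM, and Zfp827 at 0.00675 and 1.45. These 4 were picked for the values they showed. The 28 neural genes, 25 of them higher, moved with these genes in the same column, and their part in these values was not tested. With 4-OHT, 58 of the 138 were tested, with 4 higher and 2 lower, beside 27.2% and 16.9% of all tested genes.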
